A study of Mus musculus with 8 samples.

Results

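Chemokine receptors that guide T cells into skin, gut, lung and inflamed tissue were examined in regulatory T (Treg) cells with low and with high expression of the transcription repressor Bach2. The set held 9 genes, taken by symbol and grouped by the tissue they are known for: Ccr4, Ccr8 and Ccr10 for skin, Ccr9 and Gpr15 for gut, and Ccr2, Ccr6, Cxcr3 and Cxcr6 for inflamed tissue and lung. They are 9 of the 36811 gene models in the deposited table, and all 9 were among the 11260 that passed the filter on low values and were tested.

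The cells came from spleens of C57BL/6 mice of 12 to 13 weeks with the genotype Foxp3EGFP-DTR Bach2tdRFP/+. All groups thus carried a green fluorescent reporter with the diphtheria toxin receptor at Foxp3, the lineage factor of Treg cells, and a red fluorescent reporter on 1 Bach2 allele. CD4+ T cells were enriched and Foxp3-GFP positive cells were sorted by red fluorescence into a Bach2-RFP LO and a Bach2-RFP HI population, each with 4 bulk RNA-seq libraries labelled F1 and F2 (female) and M1 and M2 (male). Whether these labels mark separate animals is not stated, so p-values measure only the spread between the libraries. Values are FPKM, which relate fragment counts to library depth and to the length of the transcript, as deposited. Relative depth, read from the steps between low values with HI F1 as 1, was 0.818 to 5.27 in LO libraries and 0.636 to 1.27 in HI libraries, so that LO M2 was by far the deepest and HI M1 the shallowest. Cd3e stood at 383 to 431 FPKM in LO and 283 to 378 in HI libraries, and Foxp3 at 10.5 to 19.8 in LO and 13.3 to 15.2 in HI libraries. Of 7 Treg markers tested, 2 rose and 1 fell. Ctla4, an inhibitory receptor, was at 251 ± 32.4 FPKM in LO and 101 ± 7.53 in HI cells (limma adjusted p = 0.000642). Ikzf2, the transcription factor Helios, was at 22.1 ± 4.25 in LO and 10.2 ± 1.40 in HI cells (adjusted p = 0.0214), and this call ended without any 1 of LO F1, LO F2 and HI F2 (0.0614 to 0.065). Il2ra, a chain of the interleukin-2 receptor, fell to 27.7 ± 5.13 in LO cells, against 75.6 ± 8.83 in HI cells (adjusted p = 0.00149). Bach2 itself, on which the cells were sorted, was at 0.447 to 0.894 FPKM in LO and 8.62 to 20.7 in HI libraries.

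Chemokine receptors are seven-helix membrane proteins that signal through inhibitory G proteins when they bind small secreted chemokines, and the cell then migrates up the chemokine gradient. Resting Treg cells circulate through lymphoid organs with Ccr7, while activated Treg cells lose it and take up receptors for chemokines made in peripheral tissue. Gpr15 is not a classical chemokine receptor but belongs to the same receptor superfamily and has a chemokine-like peptide as ligand.

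As a group the tissue receptors were higher in LO cells. Of the 9 genes, 6 rose (Ccr2, Ccr4, Ccr8, Ccr10, Cxcr3 and Gpr15), 1 fell (Ccr9) and 2 did not pass (Ccr6 and Cxcr6), at a Benjamini-Hochberg adjusted p below 0.05 in limma over all tested genes. Of all tested genes, 8.29% passed in either direction, 4.65% higher and 3.64% lower in LO cells. In 8 of the 9 genes each LO library exceeded each HI library, and in Ccr9 each was lower, while the groups did not overlap in 15.1% of all tested genes. The median log2(FPKM + 1) difference, LO minus HI, was 3.35 over the 9 genes and -0.03 over all tested genes. In bulk samples, more cells with a transcript and more transcript per cell cannot be told apart.

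**Figure D1:**
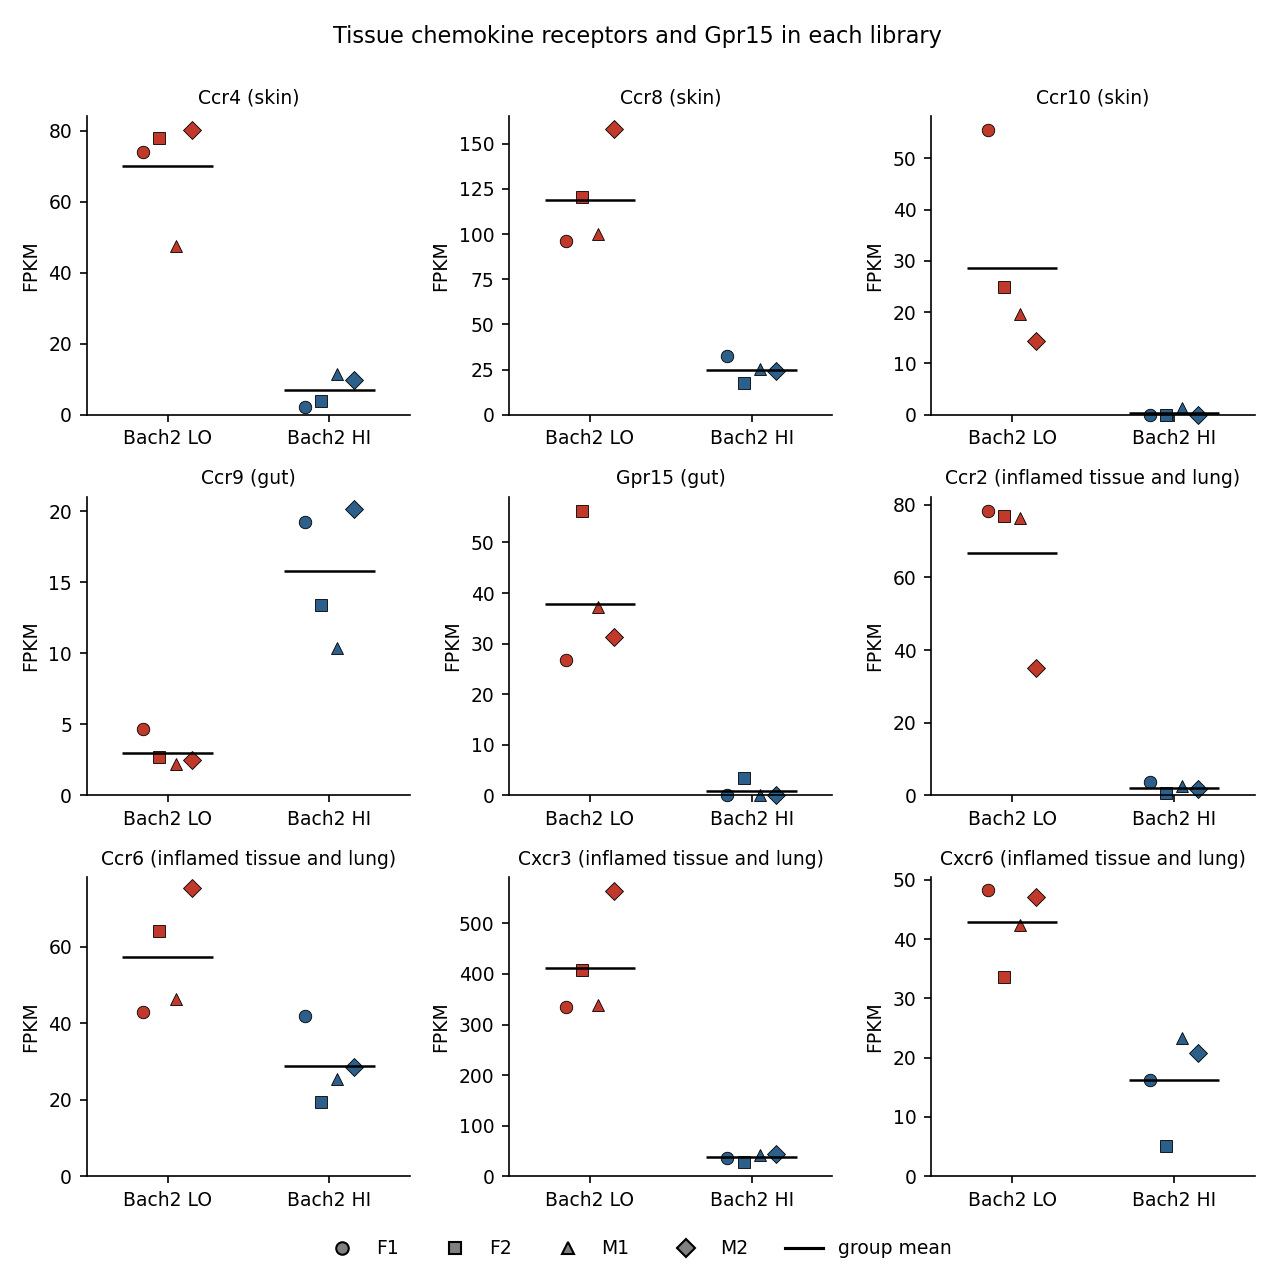
FPKM of the 9 genes in each library, LO on the left and HI on the right of each panel. Symbols mark the labels F1, F2, M1 and M2, horizontal lines the group means, and each panel has its own linear axis from 0. Ccr9 is the gene in which the LO libraries, at 2.20 to 4.70 FPKM, lie below the HI libraries, at 10.4 to 20.1.

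Among the skin receptors, Ccr4 (ENSMUSG00000047898) binds Ccl17 and Ccl22 and is carried by skin-homing T cells and many Treg cells. It was at 74.1, 78.1, 47.5 and 80.3 FPKM in LO F1, F2, M1 and M2, and at 2.31, 3.86, 11.6 and 9.76 in HI F1, F2, M1 and M2. LO M1 was the lowest LO library and still stood 4.10 times above the highest HI library, HI M1. The means were 70.0 ± 15.2 FPKM in LO and 6.88 ± 4.49 in HI cells (SD, n = 4 each), a 10.2-fold rise (log2 difference 3.35, SE 0.425, 95% interval 2.40 to 4.30, limma adjusted p = 0.00127).

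Ccr8 (ENSMUSG00000042262), the receptor of Ccl1 and a marker of activated Treg cells in skin and tumours, was at 96.2, 121, 99.95 and 158 FPKM in the same order of LO libraries and at 32.5, 17.7, 25.5 and 24.4 in the HI libraries. Unlike Ccr10 and Gpr15, it was thus well above 0 in every HI library. It averaged 119 ± 28.5 FPKM in LO and 25.0 ± 6.06 in HI cells, 4.75-fold higher (log2 difference 2.20, SE 0.233, limma adjusted p = 0.00057).

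Ccr10 (ENSMUSG00000044052) binds Ccl27 of skin keratinocytes and Ccl28 of mucosal epithelium. It was at 55.5, 24.9, 19.6 and 14.4 FPKM in LO F1, F2, M1 and M2, but was listed at 0 in HI F1, F2 and M2 and at 1.23 in HI M1. LO F1 had 3.85 times the value of LO M2, the widest spread of the 9 genes within the LO group. Scaled by relative depth, the values stood as 58, 26, 25 and 97 in the LO libraries and as 0, 0, 1 and 0 in the HI libraries, the smallest whole numbers in that proportion, which may be as many reads. No fold is given against a group with values of 0; the log2 difference was 4.42 (SE 0.464, limma adjusted p = 0.00057).

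Plasma cells also carry Ccr10, and some of their markers were higher in LO libraries. How many such cells remained after the enrichment of CD4+ T cells and the Foxp3-GFP sort was not measured here. Jchain, the joining chain of secreted antibody, was at 160, 88.1, 60.1 and 47.6 FPKM in LO F1, F2, M1 and M2, and at up to 17.1 in HI libraries. Jchain and Mzb1 ranked the 4 LO libraries as Ccr10 did, and the other plasma cell markers listed did not. Sdc1, Xbp1 and Prdm1 were lowest in LO F1, where Ccr10 was highest. Irf4 and Tnfrsf17 were highest in LO M2, where Ccr10 was lowest. Of the 6 tested of 7 plasma cell markers, 2 rose (Jchain and Prdm1, which Treg cells also express) and 0 fell, and the summed level of the list was 183 to 276 in LO and 127 to 152 in HI libraries. Tnfrsf17 was listed at 0 in LO F1, F2 and M1 and in the 4 HI libraries, and Mzb1 was at 1.93 to 8.29 in LO and 4.14 to 13.3 in HI libraries. The part of such cells in the Ccr10 result was not tested.

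The gut receptors went in opposite directions. Gpr15 (ENSMUSG00000047293), which brings T cells, Treg cells among them, to the large intestine, was at 26.8, 56.2, 37.3 and 31.4 FPKM in LO F1, F2, M1 and M2. In the HI group it was listed at 0 in F1, M1 and M2 and at 3.44 in F2. Scaled by depth these values stood as 20, 42, 34 and 151 in LO libraries and as 0, 4, 0 and 0 in HI libraries. With a log2 difference of 4.69 (SE 0.516, limma adjusted p = 0.000642) it had the largest estimate of the 9 genes on this scale, with a 95% interval of 3.54 to 5.84 that overlapped those of Ccr2, Ccr4, Ccr10 and Cxcr3. The end of the Gpr15 transcript overlaps the neighbouring gene Cpox on the other strand, and 9.75% of its 50-base stretches are also found in Cpox transcripts. Cpox was at 13.9 to 23.4 FPKM in LO and 6.28 to 11.0 in HI libraries (limma adjusted p = 0.0618), and whether counting used strand is not given in the sources used here.

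Ccr9 (ENSMUSG00000029530), the receptor of Ccl25 that guides T cells to the small intestine, was at 4.70, 2.68, 2.20 and 2.50 FPKM in LO F1, F2, M1 and M2, against 19.2, 13.4, 10.4 and 20.1 in HI F1, F2, M1 and M2. Every LO library lay below every HI library. The mean fell to 3.02 ± 1.14 FPKM in LO cells, against 15.8 ± 4.69 in HI cells, a 5.22-fold fall (log2 difference -2.05, SE 0.324, 95% interval -2.78 to -1.33, limma adjusted p = 0.00379). Depth-scaled values were 7, 4, 4 and 24 in LO and 35, 31, 12 and 30 in HI libraries, again the smallest whole numbers in that proportion. If these are reads, the LO level rests on few of them outside LO M2.

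Plasmacytoid dendritic cells carry Ccr9 as well, and 6 of their markers were also lower in LO libraries. How many of these cells remained after the same enrichment and sort was not measured here. Of the 9 markers tested 0 rose, and their summed level was 330 to 429 FPKM in LO and 556 to 888 in HI libraries. Siglech, a lectin of these cells, was at 0, 0.760, 0 and 1.40 in LO F1, F2, M1 and M2, and at 44.6, 7.14, 21.0 and 21.9 in HI F1, F2, M1 and M2. HI F1 and M2 thus stood above HI F2 and M1 for both Siglech and Ccr9. Of the other markers listed, Cd209d, Cox6a2, Irf8 and Klk1 split the HI libraries in this way, and Bst2, Ly6d, Pacsin1 and Tcf4 did not. The lowest HI library was F2 for Siglech and M1 for Ccr9. The part of these cells in the Ccr9 result was not tested.

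Among the receptors for inflamed tissue, Cxcr3 (ENSMUSG00000050232), the receptor of the interferon-induced chemokines Cxcl9 and Cxcl10, had the highest mean level in both populations. It was at 335, 407, 338 and 565 FPKM in LO F1, F2, M1 and M2 and at 35.9, 27.0, 41.7 and 43.8 in HI F1, F2, M1 and M2. The lowest LO library was 7.65 times the highest HI library. The group means of 411 ± 107 in LO and 37.1 ± 7.54 in HI cells differed 11.1-fold (log2 difference 3.43, SE 0.218, limma adjusted p = 5.31e-05), and Cxcr3 had the sixth smallest p of all tested genes.

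Ccr2 (ENSMUSG00000049103), the receptor of Ccl2 on cells that enter inflamed tissue, was at 78.3, 76.9, 76.3 and 35.1 FPKM in LO F1, F2, M1 and M2 and at 3.70, 0.552, 2.68 and 1.75 in HI F1, F2, M1 and M2. Of the LO libraries F1, F2 and M1 were nearly equal and M2, the deepest, had less than the others. It rose 30.7-fold to 66.7 ± 21.0 FPKM in LO cells, against 2.17 ± 1.34 in HI cells (log2 difference 4.46, SE 0.402, limma adjusted p = 0.000295). Monocytes carry Ccr2 too, and how many remained after the sort was not measured here. Of their 6 tested markers of 8, 0 rose and 1 (Csf1r) fell. Their summed level was 81.4 to 216 in LO and 112 to 287 in HI libraries. Lyz2 was at 35.4 to 134 FPKM in LO and 48.9 to 162 in HI libraries. Cybb was at 16.2 to 42.4 in LO and 6.72 to 29.8 in HI libraries, and Cd14 at 0 to 0.495 in LO and 0 to 1.37 in HI libraries. The part of monocytes in the Ccr2 result was not tested. Of the 50-base stretches of its longest transcript, 2.27% occur in other genes.

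Ccr6 and Cxcr6 did not pass the threshold although their groups did not overlap. Ccr6 (ENSMUSG00000040899), the receptor of Ccl20 on interleukin-17 type T cells and B cells, was at 42.9, 64.2, 46.3 and 75.3 FPKM in LO F1, F2, M1 and M2 and at 41.8, 19.3, 25.4 and 28.5 in HI F1, F2, M1 and M2. LO F1 and HI F1 were nearly equal. The log2 difference of 0.98 (SE 0.274, 95% interval 0.37 to 1.60) had a limma adjusted p of 0.0572, which was 0.0317 without HI F1. Of 7 tested B cell markers of 8, 3 fell, Cd79a and Ms4a1 among them, and 1 rose, the antibody heavy chain gene Ighm (adjusted p = 0.0462, or 0.067 to 0.131 without any 1 library other than LO F1 and LO M1), and Ms4a1 was at 0 to 1.95 in LO and 5.50 to 24.3 in HI libraries. Their summed level, mostly Ighm, was 1111 to 2047 in LO and 939 to 1092 in HI libraries, and the part of B cells in the Ccr6 values was not tested.

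Cxcr6 (ENSMUSG00000048521), the receptor of Cxcl16 on T cells resident in liver and lung, was at 48.3, 33.6, 42.3 and 47.1 FPKM in LO F1, F2, M1 and M2 and at 16.2, 4.99, 23.3 and 20.7 in HI F1, F2, M1 and M2. HI F2 was the lowest library and widened the HI group. The log2 difference was 1.51 (SE 0.409, 95% interval 0.59 to 2.42, limma adjusted p = 0.0518). Without HI F2 it was smaller, 1.06, but passed at an adjusted p of 0.0317, and it also passed without HI M1 at 0.0432. Natural killer and innate lymphoid cells can carry Cxcr6 and Cxcr3, and of 4 tested of 7 such markers 0 rose and 1 fell (Eomes, adjusted p = 0.0183, or 0.0543 without LO F2 and 0.0506 without HI M2), with Ncr1 at 0 to 0.717 in LO and 0 to 3.47 in HI libraries. The summed level of these markers was 68.5 to 92.0 in LO and 58.2 to 116 in HI libraries. Most of it was Il7r, at 59.3 to 78.6 in LO and 45.1 to 87.3 in HI libraries. The part of natural killer and innate lymphoid cells in the Cxcr6 and Cxcr3 values was not tested.

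**Figure D2:**
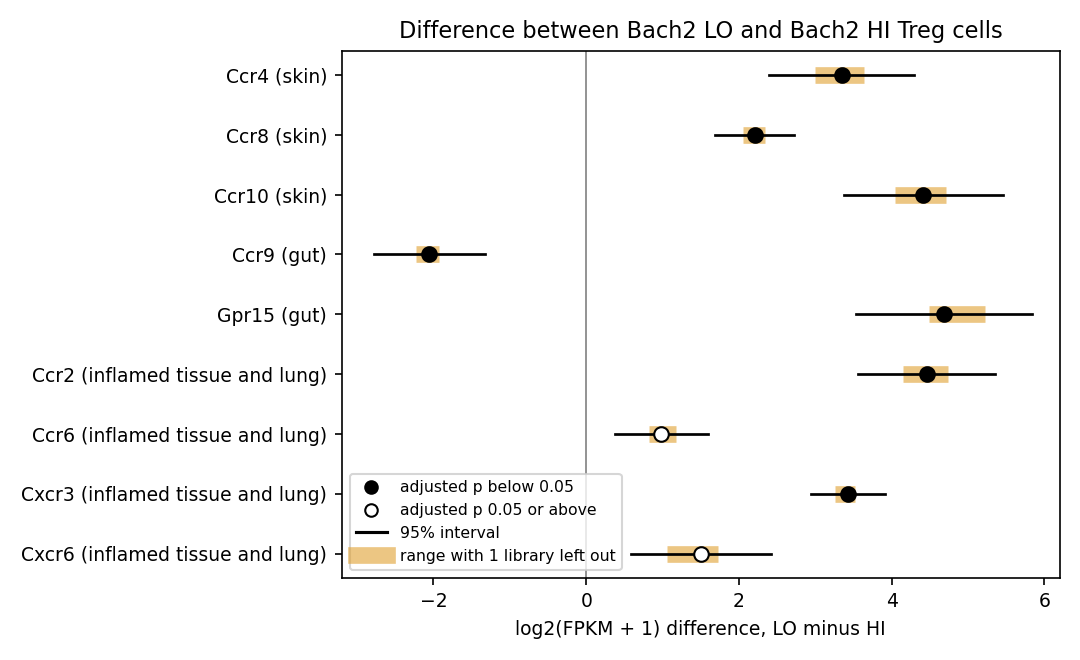
Difference in log2(FPKM + 1), LO minus HI, for each of the 9 genes, grouped by tissue. Points are limma estimates, filled where the adjusted p was below 0.05, thin lines are 95% intervals, and wide bands give the range with each library left out in turn. The 7 filled points are Ccr9, at -2.05, and 6 genes from 2.20 to 4.69.

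Per length, the receptors also stood in a different proportion to each other. The summed FPKM of the 9 genes was 762, 864, 710 and 1009 in LO F1, F2, M1 and M2 and 152, 90.1, 142 and 149 in HI F1, F2, M1 and M2, with HI F2 the lowest. Cxcr3 made up 44.0% to 56.0% of this sum in LO and 23.7% to 29.9% in HI libraries. Ccr6 made up 5.63% to 7.46% in LO and 17.9% to 27.6% in HI libraries, and Ccr9 0.248% to 0.616% in LO and 7.31% to 14.8% in HI libraries. Cxcr3 thus held a larger share in every LO library than in any HI library, and Ccr6 and Ccr9 a smaller one. Ccr8 held 12.6% to 15.7% in LO and 16.4% to 21.4% in HI libraries.

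In LO cells the levels ran in the order Cxcr3, Ccr8, Ccr4, Ccr2, Ccr6, Cxcr6, Gpr15, Ccr10 and Ccr9 by mean FPKM. Only the steps from Cxcr3 to Ccr8, from Ccr8 to Ccr4 and from Ccr10 to Ccr9 separated neighbours without overlap of their 4 values. In HI cells the order was Cxcr3, Ccr6, Ccr8, Cxcr6, Ccr9, Ccr4, Ccr2, Gpr15 and Ccr10, and each neighbouring pair overlapped. HI F2 had the lowest HI value in 5 of the 9 genes (Ccr2, Ccr6, Ccr8, Cxcr3 and Cxcr6), although it was the only HI library with Gpr15 above 0.

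**Figure D3:**
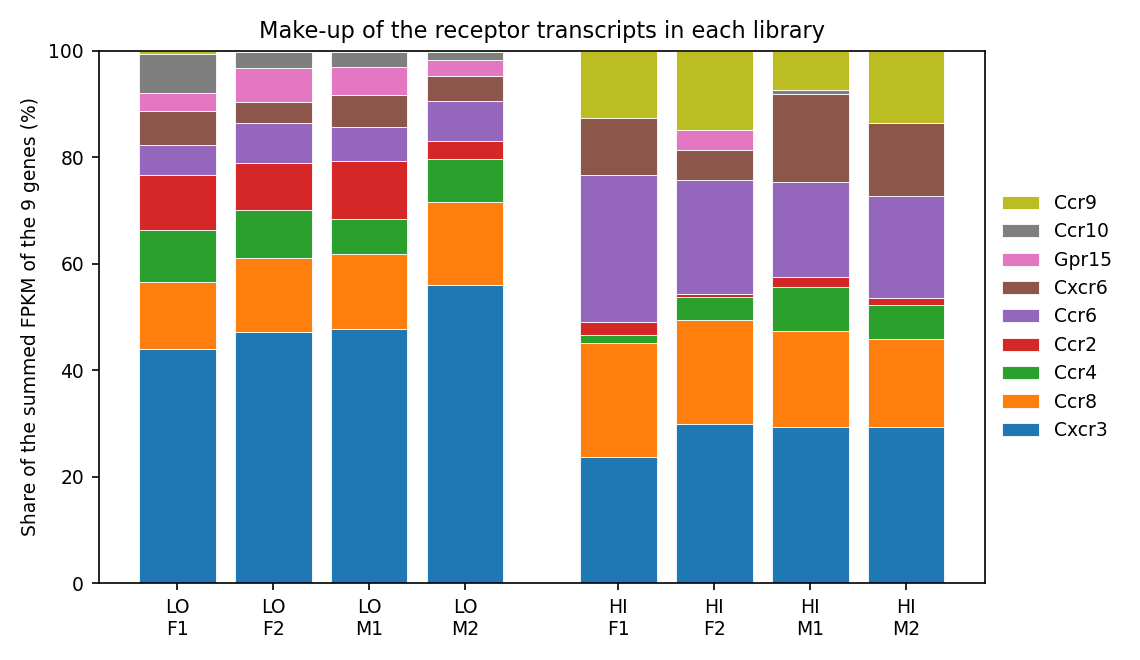
Share of each gene in the summed FPKM of the 9 genes, in percent, 1 stacked bar per library, LO libraries left and HI libraries right. Cxcr3 takes 44.0% to 56.0% of the LO bars and 23.7% to 29.9% of the HI bars, while Ccr6 and Ccr9 take larger shares in the HI bars.

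Several of these genes sit in a receptor gene cluster. Ordered by their lowest coordinate in RefSeq on mouse chromosome 9, Ccr9, Fyco1, Cxcr6, Xcr1, Ccr1, Ccr1l1, Ccr3 and Ccr2 follow each other. In this order only Fyco1 comes between Ccr9, which fell, and Cxcr6. The order does not show whether genes overlap, so Fyco1 may extend across Cxcr6. Fyco1 was at 5.04 ± 1.34 FPKM in LO and 3.75 ± 0.730 in HI cells (limma adjusted p = 0.592), and Lztfl1, on the other side of Ccr9, at 33.9 ± 5.18 in LO and 29.5 ± 4.06 in HI cells (limma adjusted p = 0.645). Ccr3, the eotaxin receptor, rose 7.16-fold to 10.9 ± 4.10 FPKM in LO cells, against 1.52 ± 0.556 in HI cells (log2 difference 2.18, limma adjusted p = 0.00538). Ccr1 had an adjusted p of 0.0932, and Xcr1 and Ccr1l1 did not pass the filter. Of the 12 tested of 16 genes listed for this cluster and its surroundings, 3 rose (Ccr2, Ccr3 and the atypical receptor Ccrl2) and 1 fell (Ccr9).

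**Figure D4:**
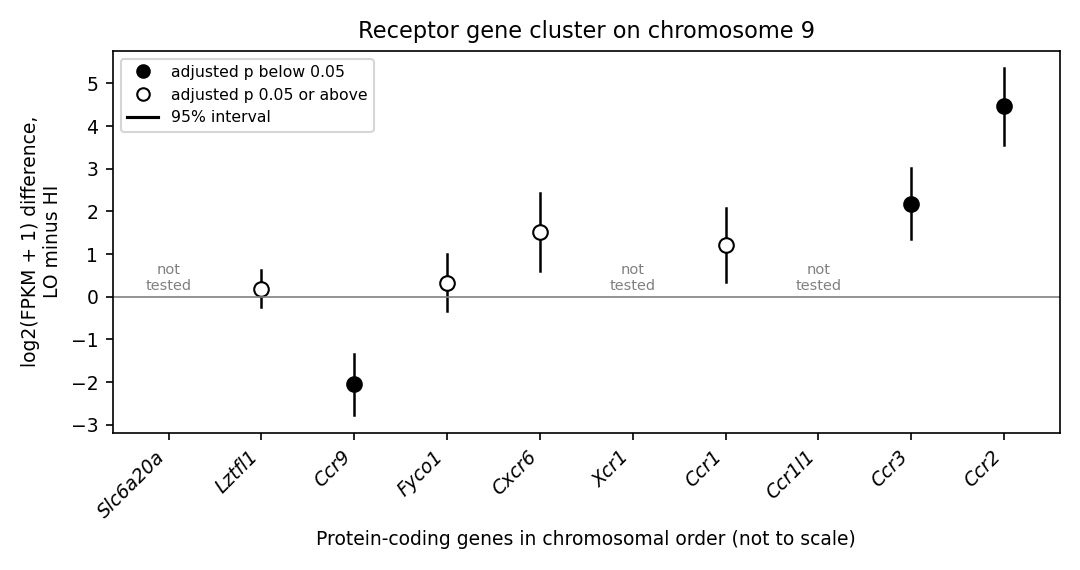
Difference in log2(FPKM + 1), LO minus HI, for protein-coding genes from Slc6a20a to Ccr2 on chromosome 9. Genes are in chromosomal order by their lowest coordinate, not to scale, and overlaps between genes are not shown. Points are limma estimates, filled where the adjusted p was below 0.05, with 95% intervals, and genes below the filter are marked as not tested. Ccr9 lies at -2.05, Fyco1 at 0.33 and Cxcr6 at 1.51.

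Promoter windows of 300 bases, from 250 before to 50 after a start site, were available from RefSeq (GRCm38.p6) for 8 of the 9 genes, in 9 windows. They were searched on both strands for TGANTCA, since the cells were sorted by Bach2. This pattern is TGAGTCA, the element that Bach2 and AP-1 factors share, with the middle base left free. It was found as TGAGTCA in the Ccr4 window and as TGATTCA, which differs from the element at the free base, in the Gpr15 window. The free pattern lay in 7.81% of all 32851 windows of the same length, and TGAGTCA alone was not counted. The Ccr4 and Gpr15 windows are shown because they hold a match (in capitals), and that of Ccr9 because it was the gene that fell. All read 5′ to 3′ on the gene's strand. The Ccr4 window is chr9:114496495-114496794 (minus strand), with the match at -143 from the start site. The Gpr15 window is chr16:58718823-58719122 (minus strand), with the match at -199, and the Ccr9 window, with no match, is chr9:123766961-123767260 (plus strand).
Ccr4: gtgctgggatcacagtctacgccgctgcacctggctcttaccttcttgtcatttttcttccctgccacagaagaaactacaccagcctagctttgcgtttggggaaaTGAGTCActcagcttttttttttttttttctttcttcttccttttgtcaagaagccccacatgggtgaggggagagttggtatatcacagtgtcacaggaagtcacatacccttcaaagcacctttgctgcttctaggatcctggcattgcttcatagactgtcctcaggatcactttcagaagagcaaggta
Gpr15: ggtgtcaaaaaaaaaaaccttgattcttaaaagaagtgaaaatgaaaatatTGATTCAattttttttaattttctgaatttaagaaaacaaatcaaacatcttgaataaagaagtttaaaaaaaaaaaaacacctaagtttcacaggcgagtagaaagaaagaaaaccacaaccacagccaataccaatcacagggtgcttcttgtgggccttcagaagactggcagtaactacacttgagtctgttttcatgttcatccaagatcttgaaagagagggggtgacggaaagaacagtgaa
Ccr9: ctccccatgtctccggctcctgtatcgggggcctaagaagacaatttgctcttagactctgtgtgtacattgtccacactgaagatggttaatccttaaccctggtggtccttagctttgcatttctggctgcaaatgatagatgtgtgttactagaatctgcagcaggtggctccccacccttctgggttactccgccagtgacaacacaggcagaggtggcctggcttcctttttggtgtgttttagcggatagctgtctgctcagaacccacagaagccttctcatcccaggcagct

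The letters of 3 other motifs were searched in the same way, for factors known to act on genes of the set. GCGTG, the core bound by the aryl hydrocarbon receptor, lay in the windows of Ccr8 and Cxcr3 and in 32.4% of all windows. AGATAA, bound by Gata3 and its relatives, lay in those of Ccr2, Ccr8 and 1 of the Ccr6 windows and in 11.2% of all windows, and TCACACCT, a T-box element, in none of the 9 windows and in 1.28% of all windows. A match describes these letters and does not show binding.

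Of the other chemokine receptors, 7 of 16 listed were tested, and 2 rose and 1 fell in LO cells. Ccr7, which guides T cells into lymph nodes, was at 59.5 ± 13.6 FPKM in LO and 669 ± 39.0 in HI cells (log2 difference -3.49, limma adjusted p = 1.01e-05). Besides Ccr3, Ccrl2, which binds but does not signal, rose 3.61-fold (limma adjusted p = 0.0407), but leaving out any 1 of LO F1, LO F2, LO M2, HI F1, HI F2 and HI M2 ended the call (adjusted p = 0.0847 to 0.111). The follicular receptor Cxcr5 was at 19.3 to 73.3 FPKM in LO and 14.8 to 34.4 in HI libraries (limma adjusted p = 0.49), and Cxcr4, the receptor of the bone marrow chemokine Cxcl12, at 4.16 to 15.4 in LO and 0.584 to 5.35 in HI libraries (limma adjusted p = 0.12).

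Ligands of the 9 receptors are known chiefly as products of epithelial, stromal and myeloid cells. Of 15 ligand genes in the table, 5 were tested, 1 rose and 1 fell. Cxcl10, a ligand of Cxcr3, rose to 45.5 ± 21.7 FPKM in LO cells, against 12.7 ± 9.22 in HI cells (limma adjusted p = 0.0385). That call was lost without any 1 library other than LO M1 and HI F2 (adjusted p = 0.0618 to 0.0989). Ccl27a, a ligand of Ccr10, was at 0, 0, 0 and 3.60 in LO F1, F2, M1 and M2 and at 5.33 to 13.0 in HI libraries (limma adjusted p = 0.0165, or 0.0503 without LO F2). Cxcl16, the ligand of Cxcr6, and Ccl25, that of Ccr9, did not pass (adjusted p = 0.382 and 0.696). Ccl1, the ligand of Ccr8, was at 4.66 to 11.4 in LO and up to 20.0 in HI libraries, and Ccl2, Ccl17, Ccl20 and Ccl22 were listed at 0 in all 8 libraries.

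Of 27 tested genes of receptor signalling and desensitisation, 2 rose and 1 fell, with a median log2 difference of 0.22. Rgs10, an accelerator of G protein inactivation, fell to 264 ± 39.7 FPKM in LO cells, against 615 ± 41.4 in HI cells, while Rgs16 of the same family rose to 37.3 ± 9.47 in LO cells, against 11.6 ± 4.35 in HI cells (limma adjusted p = 0.000711 and 0.0106). Prex1, an exchange factor for Rac, rose 2.71-fold (adjusted p = 0.018), and Dock2, another one, was at 126 ± 14.7 in LO and 76.9 ± 22.2 in HI cells (adjusted p = 0.0728, or 0.0395 without HI M2). Rgs16 and Prex1 did not pass without HI M1 and LO M2 together (adjusted p = 0.059 and 0.0852). Gnai2, the main inhibitory G protein subunit of lymphocytes, was at 912 to 1080 FPKM in LO and 769 to 907 in HI libraries.

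Of 17 tested partners in tissue homing, 7 rose (Cd44, Fut7, Gcnt1, Itga2, Itgae, Itgb1 and Itgb7) and 1 fell, with a median log2 difference of 0.56. For Cd44, the receptor of hyaluronan, the call ended without any 1 library other than LO M1 (adjusted p = 0.062 to 0.11). Itgae, the chain of CD103 that binds epithelial cadherin, rose 8.40-fold, and Itgb1, the beta 1 integrin chain, 5.63-fold (limma adjusted p = 0.000262 and 7.8e-05). Itgb7, which pairs with Itga4 for gut homing, rose 1.56-fold to 1242 ± 61.9 FPKM in LO cells, against 796 ± 92.7 in HI cells (adjusted p = 0.00964, or 0.062 without the variance trend), while Itga4 was at 39.4 to 60.7 in LO and 31.4 to 41.4 in HI libraries (adjusted p = 0.269). Fut7, a fucosyltransferase that makes selectin ligands for skin homing, was at 24.4 to 68.2 in LO libraries, and at 0.763, 6.83, 0 and 4.66 in HI F1, F2, M1 and M2 (adjusted p = 0.00739). Gcnt1, which builds the same ligands, was at 2.44 to 4.98 in LO libraries, at 0.277 in HI F1 and at 0 in the other HI libraries.

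Of 17 tested transcription factors known to act on genes of the set, 6 rose, among them Batf, Gata3, Hic1, Rora and Tbx21, and 1 fell (Bach2, on which the cells were sorted). Tbx21, which drives Cxcr3, rose 6.55-fold (log2 difference 2.43, limma adjusted p = 0.00211), Rora 6.68-fold and Batf 2.87-fold. Gata3, which acts on Ccr4 and Ccr8, was at 770, 685, 436 and 272 in LO F1, F2, M1 and M2 and at 217, 281, 230 and 160 in HI F1, F2, M1 and M2 (adjusted p = 0.0461), so that LO M2 overlapped the HI libraries. The Gata3 call was lost without any 1 library other than LO M2 (adjusted p = 0.0633 to 0.125), and that of Hic1 without any of LO F1, F2 and M2 and the HI libraries (0.0551 to 0.0837). Ahr, which acts on Gpr15, was at 4.94 to 17.0 in LO and 0.545 to 4.58 in HI libraries but did not pass (adjusted p = 0.0948).

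The LO and HI libraries differed in the same direction in male and in female libraries for each of the 9 genes. This follows from the lack of overlap between the groups and adds nothing to it. For Ccr4 the log2 difference was 2.43 in male and 4.26 in female libraries, with HI M1 and M2 above HI F1 and F2, and the male minus female difference of -1.83 (SE 0.538) had a limma adjusted p of 0.999. Of the 9 genes 0 were called for this interaction in limma and 1, Ccr4, had an unadjusted p below 0.05, as did 431 of all tested genes. The interaction called 2 (0.0178%) of all tested genes, the receptor segment Traj56 and the pseudogene Mpc1-ps, named here after their values were seen. With 2 libraries per sex and group the intervals were wide: for Gpr15 that of the male minus female difference ran from -1.45 to 3.24.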

How the data were processed

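RNA was made into libraries by SmartSeq2 and sequenced on a HiSeq instrument, per the labels' protocols. Per the submitters' processing notes, reads were handled with HISAT2, cutadapt and FastQC (no versions), and mm9 and NCBIM37 are the builds listed. The values are FPKM as the authors deposited them for 36811 gene models in 8 libraries, scaled for library size and transcript length upstream. Depth is unknown apart from relative depth, read from the steps between low values. Whole numbers in the proportion of the depth-scaled values were accepted within 0.02. Symbols came from the gene name table, which matched 31840 models. Tests covered models that reached 1 FPKM in 4 or more libraries, on log2(FPKM + 1), which understates the change of low genes, with limma 3.58.1 (R 4.3.3, variance trend, Benjamini-Hochberg adjustment). Interactions of sex and population used the same values. The script was tested on simulated data. RefSeq promoters of GRCm38.p6 were used by gene symbol only, and shared 50-base stretches were sought in the GENCODE transcripts supplied as reference.

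The members and gene lists were chosen with earlier results of these data known. Beside the 9 members, named genes were up to 4 tested genes of each list with the smallest limma p and, for each member, the 2 most correlated tested genes; other genes were chosen after their values were seen, and some named by the rule are not reported here. Lists are described by counts and medians without a test. Alternatives were another pseudocount (0.1), no or a stricter filter (5), other scalings, variance settings, covariates, a replicate block and leaving out each library.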

Additional observations from a re-analysis of the deposited data

Results flagged for a closer look

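In each population the 4 libraries of each of the 9 genes were screened for a single library far from the others, and 3 of 18 sets of values held one. A screen of this kind picks out about 1 in 20 sets by chance if values are normally distributed. A set with 1 library above 0 and the others at 0 is always picked, as for Ccr10 and Gpr15 in HI libraries. The 3 of 18 can therefore not be set against that rate. Ccr2 was at 35.1 FPKM in LO M2, below the other LO libraries at 76.3 to 78.3, and the gap made up 0.952 of the LO range. Ccr10 was at 1.23 FPKM in HI M1 and listed at 0 in the other HI libraries. Gpr15 was at 3.44 FPKM in HI F2 and likewise listed at 0 in the others. Each of these libraries still lay on its own population's side.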

How the results depend on the processing

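The 7 called genes of the set (Ccr2, Ccr4, Ccr8, Ccr9, Ccr10, Cxcr3 and Gpr15) kept their direction and their call under all 20 alternatives, with a highest adjusted p of 0.0151 (Ccr9). Ccr6 and Cxcr6 kept their direction. Ccr6 passed with upper quartile scaling (adjusted p = 0.0483) and without HI F1, and reached 0.219 without HI M1 and LO M2 together, the shallowest and the deepest library. Cxcr6 passed in 9 of the 20 alternatives, with adjusted p-values of 0.0317 to 0.117 over all of them. Of the values of 32 other genes of the lists, 570 kept their side of the threshold, 57 lost it and 5 gained it. Of 238 values of 12 further genes (Itga2 and called markers) 217 kept it and 21 lost it. None of these values changed direction, and the most correlated genes were not run under alternatives. The number of called genes was 934, 642 to 788 with each library left out, and 646 without HI M1 and LO M2 together. With a pseudocount of 0.1 the log2 differences of Ccr10 and Gpr15 were 7.04 and 7.23, so their size depends on it. Whether equal library labels mark a shared animal is not stated. Correlations of deviations from the group means were 0.0149 to 0.113 for the same label, and LO F1, M1 and M2 correlated best with the HI library of their own label but LO F2 with HI M2. Of the same-label pairs only M2 exceeded 0.1, and with no shared animal stated the samples were not treated as paired. These correlations cannot decide whether animals were shared, since deviations from a group mean depend on each other. With the label as a replicate block 771 genes passed, Cxcr6 among them (adjusted p = 0.0358). Relative depth was 0.636 to 1.27 in HI libraries, 0.818 in LO F1 and F2 and 1 in LO M1. Low expression may not be detectable at such depths, and the part of depth in the HI values of 0 was not tested.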

Other observations

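The genes whose log2(FPKM + 1) values followed each receptor most closely over the 8 libraries are given as a description. They were picked for this likeness, so library patterns shared with their receptor come with the choice. The 8 points share the split into LO and HI libraries, their depth and their preparation. For the skin receptors these were Ctla2a and Capg for Ccr4 (Pearson r 0.99 and 0.986), Stx11 and Zcchc18 for Ccr8 (0.994 and 0.993), and Mmp25 and Cmtm7 for Ccr10 (0.996 and 0.991). Mmp25, a membrane-bound metalloprotease, was at 3.68, 2.76, 2.26 and 1.93 FPKM in LO F1, F2, M1 and M2, the same order of libraries as Ccr10, and in the HI group was above 0 only in M1, at 0.591. For Gpr15 the closest was Fam83d (0.996), which was likewise listed at 0 in HI F1, M1 and M2.

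For Ccr9 they were Tars2, a mitochondrial threonyl-tRNA synthetase, and Als2cl (0.979 and 0.977). For Ccr2 they were the calcium-binding proteins S100a11 and S100a6 (0.993 and 0.992), and S100a6 shared its low LO library, at 620 FPKM in LO M2 against 1292 to 1988 in the other LO libraries. For the other receptors of inflamed tissue they were Gbp3 and Ces2c for Ccr6 (0.983 and 0.971), Igflr1 and Serinc3 for Cxcr3 (0.996 and 0.995), and Cnpy3 and Racgap1 for Cxcr6 (0.964 and 0.96).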
